A study of Arabidopsis thaliana with 9 samples.

Results

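The 6 genes described here encode the linker histones and the histone variant H2A.W of Arabidopsis thaliana. They were taken by locus identifier under a rule that used no measured value, although they were proposed with earlier results of these data known, and all 6 were found among the 33602 loci of the deposited tables. The 3 linker histone genes are H1.1 (AT1G06760), H1.2 (AT2G30620) and H1.3 (AT2G18050), and the 3 H2A.W genes are HTA6 (AT5G59870), HTA7 (AT5G27670) and HTA12 (AT5G02560). RNA was measured in leaves of plants aged 4 to 5 weeks from 3 groups of 3 libraries, all in the Col-0 ecotype. The ddm1 plants were homozygous mutants, ddm1(-/-), in their 2nd generation. The F1 plants came from a cross of Col-0 with ddm1 and carried 1 mutant and 1 wild-type DDM1 allele. The WT plants were Col-0. The labels call the replicates independent biological ones but do not name the ddm1 allele. The labels also leave out whether a library came from 1 plant or several, and the hour and batch of harvest.

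Linker histones bind the nucleosome where DNA enters and leaves it and help to compact chromatin. In Arabidopsis, H1.1 and H1.2 are the main, broadly present forms, whereas H1.3 is a shorter variant known for its response to drought and low light and for its presence in guard cells. H2A.W replaces canonical H2A in plant heterochromatin, where its C-terminal tail contacts linker DNA. DDM1 is a chromatin remodeller that keeps transposons silent, is known to bind H2A.W, and is needed for DNA methylation of chromatin that contains H1. These 6 genes therefore encode a histone variant that DDM1 is known to bind and the linker histones of chromatin whose methylation needs DDM1. The comparisons ask how much RNA each gene gave in the homozygous mutants, in the F1 plants and in WT. The F1 plants differed from WT both in DDM1 copies and in descent from a ddm1 parent. In F1 against WT these differences cannot be told apart from each other or from the hour and batch of harvest.

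Library totals ran from 15996806 to 22425699 estimated counts, of which 5209179 to 7570493 fell on nuclear loci. Organelle loci took 66.2% to 67.9% of the counts in ddm1, 70.6% to 72.8% in F1 and 64.7% to 68.9% in WT. DDM1 itself had 1, 2 and 2 counts in ddm1, 2, 0 and 8 in F1, and 3, 12 and 5 in WT, too few to check the genotype labels. The summed level of 5 leaf markers, which code for photosynthesis proteins, was 5745 to 11940 CPM (counts scaled by normalized library size) in ddm1, 1358 to 2086 CPM in F1 and 6920 to 11950 CPM in WT. The F1 libraries thus had the lowest leaf marker sums, although LHCB1.4, 1 of the 5 markers, overlapped between the groups (15.0 to 738.9 CPM in ddm1, 48.0 to 233.1 CPM in F1 and 115.6 to 575 CPM in WT). The 4 seed markers and the root stem cell gene WOX5 were at 0 in every library. The other root markers were read in all libraries, SCR at 6.3 to 13.25 CPM and SHR at 2.52 to 6.44 CPM. The flower marker VGD1 had 7.60 CPM in WT library 2 and at most 0.848 CPM in any other library. SEP1, the other flower marker tested, had 4.95, 3.37 and 1.82 CPM in ddm1. It had 0.462, 0.172 and 2.73 CPM in F1, and 2.69, 1.81 and 0.252 CPM in WT. The remaining flower markers reached at most 1.09 CPM (AG in ddm1 library 1). Of the 2 root and 2 flower markers tested, edgeR called 0 in any comparison.

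The trait that defines H2A.W lies at the end of the coding sequence, in a serine-proline-lysine-lysine (SPKK) motif. The last 75 coding bases of each H2A.W gene, stop codon included, are given 5′ to 3′ on the coding strand from the RefSeq TAIR10.1 genome, with the SPKK codons in capitals, to show what separates these genes from the other H2A genes.
HTA6: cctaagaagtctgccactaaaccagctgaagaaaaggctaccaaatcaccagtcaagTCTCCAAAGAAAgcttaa
HTA7: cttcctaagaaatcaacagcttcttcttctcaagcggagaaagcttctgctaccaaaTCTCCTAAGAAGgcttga
HTA12: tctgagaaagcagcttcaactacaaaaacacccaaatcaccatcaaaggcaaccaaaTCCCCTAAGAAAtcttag
The SPKK codons were found in this window in 3 of 3 H2A.W genes and in 0 of 10 other H2A genes. Over the aligned coding sequence, HTA6 and HTA7 were 68% identical, HTA6 and HTA12 58.3%, and HTA7 and HTA12 58.1%. H1.1 and H1.2 were 65.8% identical, whereas H1.3 shared 41.5% with H1.1 and 40.1% with H1.2. The H1.3 coding sequence, at 504 bases, was shorter than those of H1.1 (825 bases) and H1.2 (822 bases). No run of 31 bases was shared between the annotated transcripts of any of the 6 genes, so that on these transcripts reads of one could be told from reads of another. The deposited target length equalled that of an annotated transcript only for HTA12, so the targets counted for the other genes may differ.

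In TAIR10.1 coordinates, all 6 are protein-coding genes. H1.1 lies at chr1:2076504-2077767 on the minus strand, H1.2 at chr2:13044931-13046682 on the plus strand and H1.3 at chr2:7845923-7847031 on the plus strand. HTA6 lies at chr5:24115354-24116220 and HTA7 at chr5:9792509-9793560, both on the minus strand, and HTA12 at chr5:575225-577216 on the plus strand. The annotated transcript of H1.1 has 1159 bases, against 1090 in the deposited target. Of this annotated transcript, 40.2% of the 31-base runs also occur in the antisense long noncoding RNA gene AT1G04503, which covers 484 bases of H1.1 and is not analysed here. The sources used here do not say whether the counting used strand, so that reads of this antisense gene cannot be told from reads of H1.1. HTA12 overlaps another histone gene, AT5G02570, by 522 bases on the opposite strand. AT5G02570 was at 0 CPM in all 9 libraries, and the deposited HTA12 target of 738 bases shared 0 of its 708 31-base runs with any other gene. H1.1 also overlaps AT1G06750 by 2 bases and H1.2 overlaps AT2G30630 by 21 bases, in both cases on the opposite strand.

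Upstream of their gene starts, H1.1 and HTA6 each hold the histone octamer CGCGGATC, a promoter element known from plant genes for replication-linked histones. The 250 bases before the annotated start are given 5′ to 3′ on the strand of the gene, with the octamer in capitals, because both histone families have 1 gene with this rare element. The H1.1 window is chr1:2077768-2078017 and the HTA6 window is chr5:24116221-24116470, both on the minus strand of TAIR10.1.
H1.1: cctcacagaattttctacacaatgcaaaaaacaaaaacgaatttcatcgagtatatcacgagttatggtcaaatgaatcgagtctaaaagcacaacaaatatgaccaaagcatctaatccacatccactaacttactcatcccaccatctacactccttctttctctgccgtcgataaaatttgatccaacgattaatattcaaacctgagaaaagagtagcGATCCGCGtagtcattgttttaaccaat
HTA6: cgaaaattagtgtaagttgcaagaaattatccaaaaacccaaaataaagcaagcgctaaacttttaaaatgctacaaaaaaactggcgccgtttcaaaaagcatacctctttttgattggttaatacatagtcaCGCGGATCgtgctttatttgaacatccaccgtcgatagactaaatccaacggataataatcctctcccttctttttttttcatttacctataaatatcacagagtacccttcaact
In H1.1 the octamer stands as its reverse complement, from 28 to 21 bases before the start, and in HTA6 it stands on the gene's own strand, from 116 to 109 bases before it. Of 27443 such windows, 37 (0.135%) hold the octamer on either strand. Among the genes listed here, 2 of 10 other H2A genes (HTA10 and HTA13) and 3 of 5 H3.1 genes hold it. The windows were also searched on both strands for ACGTG, found in 22.9% of all windows, for CACGTG (6.49%), which contains ACGTG, for GATAAG (12.3%), AAATATCT (4.79%), AAACCCTA (4.49%) and TTTCCCGC (0.619%). HTA7 holds the first 3 of these motifs. None of the motifs was found in the windows of H1.2, H1.3 and HTA12.

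Levels of different genes were compared in deposited TPM, which account for target length. In ddm1, H1.3 had the highest mean level (16.6 ± 10.7 TPM, SD, n = 3), followed by HTA7 (14.4 ± 4.83 TPM), H1.1 (10.02 ± 1.33 TPM), H1.2 (9.41 ± 3.39 TPM), HTA12 (7.74 ± 5.25 TPM) and HTA6 (1.34 ± 0.664 TPM). The ranges of all neighbours in this order overlapped. In F1, the order was H1.3 (67.8 ± 21.0 TPM), H1.1 (34.9 ± 4.79 TPM), H1.2 (32.5 ± 3.73 TPM), HTA7 (23.7 ± 0.971 TPM), HTA12 (4.25 ± 1.64 TPM) and HTA6 (0.705 ± 0.311 TPM). Only H1.1 and H1.2 had overlapping ranges among the neighbours in F1. In WT, HTA7 came first (18.3 ± 3.43 TPM), then H1.3 (15.9 ± 13.8 TPM), H1.1 (11.3 ± 1.98 TPM), H1.2 (11.2 ± 2.83 TPM), HTA12 (6.44 ± 1.56 TPM) and HTA6 (2.94 ± 4.65 TPM). In WT, H1.2 and HTA12 were the only neighbours whose ranges were apart.

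Summed over the 3 linker histone genes, the level was 36.0 ± 15.1 TPM in ddm1, 135.2 ± 27.3 TPM in F1 and 38.4 ± 15.7 TPM in WT (SD, n = 3 each). Summed over the 3 H2A.W genes, it was 23.4 ± 9.33 TPM in ddm1, 28.6 ± 1.21 TPM in F1 and 27.7 ± 8.25 TPM in WT. Linker histone RNA in every F1 library was above that in the other groups, while the H2A.W sums of the 3 groups overlapped. These TPM take in organelle loci, whose share of counts was largest in F1. In CPM the H2A.W sum was 8.16 to 17.7 in ddm1, 17.3 to 20.7 in F1 and 11.7 to 18.7 in WT. These ranges also overlapped, with the highest mean in F1 (19.5 CPM, against 13.8 CPM in ddm1 and 15.1 CPM in WT). H1.3 made up 41.7% ± 15.95 of linker histone TPM in ddm1, 49.4% ± 6.22 in F1 and 37.4% ± 17.9 in WT, with overlapping ranges. H1.1 and H1.2 were at similar levels, with a ratio of H1.1 to H1.2 TPM of 0.935 to 1.54 in ddm1, 1.02 to 1.13 in F1 and 0.902 to 1.11 in WT. H2A.W genes made up 21.6% to 39.6% of the TPM of all 13 H2A genes in ddm1, 27.5% to 31.2% in F1 and 33.9% to 38.6% in WT. HTA7 gave most of the H2A.W TPM, at 62.9% ± 6.86 in ddm1, 82.8% ± 5.16 in F1 and 68.0% ± 11.4 in WT.

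**Figure D1:**
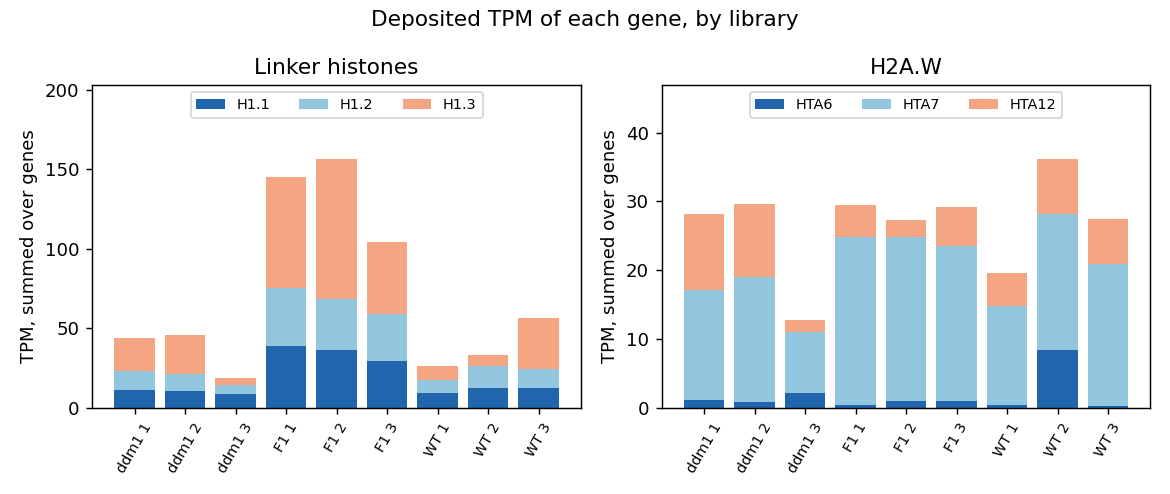
Deposited TPM of the linker histone genes (left) and H2A.W genes (right), stacked by gene, in each of the 9 libraries on the x axis. The linker histone bars of F1 reach 104.3 to 156.1 TPM, above all ddm1 and WT bars, while the H2A.W bars of F1 (27.2 to 29.5 TPM) lie within the range of the WT bars.

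In ddm1 leaves, none of the 6 genes differed from WT at an adjusted p under 0.05, a threshold that 7.37% of all genes tested passed. Values within a gene are given in CPM after normalization of library sizes. H1.1, a main linker histone, had 9.68, 9.42 and 8.43 CPM in ddm1, against 8.18, 9.87 and 10.3 CPM in WT. H1.2, its close relative, had 15.0, 14.2 and 7.89 CPM in ddm1, against 10.7, 15.8 and 14.0 CPM in WT. Both genes overlapped between the groups. The fold of ddm1 over WT was 0.971 for H1.1, with a 95% interval of 0.693 to 1.36 (log2 fold change -0.04, SE 0.22). For H1.2 the log2 fold change was -0.13 (SE 0.28, 95% interval -0.77 to 0.51).

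The stress-responsive H1.3 had 11.4, 14.6 and 2.77 CPM in ddm1, against 5.19, 3.61 and 16.9 CPM in WT. It varied 5.26-fold between ddm1 libraries 2 and 3 and 4.66-fold between WT libraries 3 and 2, and its interval was wide (log2 fold change 0.17, SE 0.68, 95% interval -1.37 to 1.70). With 1 library left out, this log2 fold change ranged from -0.25 (without ddm1 library 2) to 1.14 (without WT library 3), and none of these values passed the test. HTA7, the most abundant H2A.W gene, had 9.22, 11.2 and 5.87 CPM in ddm1, against 8.78, 10.6 and 11.5 CPM in WT (log2 fold change -0.23, SE 0.26, 95% interval -0.81 to 0.35). HTA12 had 5.78, 5.99 and 1.01 CPM in ddm1, against 2.69, 3.89 and 3.31 CPM in WT (log2 fold change 0.38, SE 0.55, 95% interval -0.86 to 1.61). Library 3 was the lowest of the ddm1 libraries for H1.1, H1.2, H1.3, HTA7 and HTA12 alike.

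HTA6 rested on few counts. It had 15, 8 and 19 counts in ddm1, 4, 11 and 11 in F1, and 4, 90 and 2 in WT. These correspond to 0.629, 0.457 and 1.28 CPM in ddm1, 0.231, 0.630 and 0.508 CPM in F1, and 0.200, 4.17 and 0.0839 CPM in WT. WT library 2 was 20.9-fold above WT library 1 and 49.7-fold above WT library 3, so that comparisons of HTA6 with WT turn on that library. The log2 fold change of ddm1 over WT was -0.92 (SE 1.17, 95% interval -3.54 to 1.70) with all libraries and 2.43 without WT library 2, and neither passed the test.

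The quasi-likelihood test of edgeR, adjusted by Benjamini and Hochberg over all genes, called 0 of the 6 genes in ddm1 against WT and 1342 of all 18216 genes tested. The count at an unadjusted p under 0.05 was also 0 with edgeR, with DESeq2 and with limma. Adjusted p ran from 0.851 for HTA7 to 0.978 for H1.1 in this edgeR test. The median log2 fold change of the 6 genes was -0.09, beside 0.03 over all genes tested. The log2 fold changes seen in F1 lay outside the 95% intervals of H1.1, H1.2, H1.3 and HTA7 in ddm1, and inside those of HTA6 and HTA12. The intervals of H1.3, HTA6 and HTA12 left room for changes of more than 2-fold.

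In F1 leaves, all 3 linker histone genes rose above WT, by 3.61-fold to 5.36-fold, in a comparison where 13.5% of all genes tested were called higher. H1.1 had 41.1, 41.4 and 26.7 CPM in F1, against 8.18, 9.87 and 10.3 CPM in WT. H1.2 had 55.7, 53.1 and 37.8 CPM in F1, against 10.7, 15.8 and 14.0 CPM in WT. H1.3 had 47.4, 64.1 and 26.5 CPM in F1, against 5.19, 3.61 and 16.9 CPM in WT. For each of the 3 genes every F1 library lay above every WT library, which was so for 25.6% of all genes tested, and F1 library 3 was the lowest of the F1 libraries. In bulk leaf RNA, a change in the cells sampled and a change in RNA per cell cannot be told apart.

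By the same test with Benjamini-Hochberg adjusted p (edgeR), H1.1 rose 3.84-fold in F1 over WT (log2 fold change 1.94, SE 0.22, adjusted p = 0.000302). It ranked 451 by p among 18216 genes. H1.2 rose 3.61-fold (log2 fold change 1.85, SE 0.29, adjusted p = 0.00201 in the same edgeR test). H1.3 rose 5.36-fold (log2 fold change 2.42, SE 0.71, adjusted p = 0.0364 in edgeR). The H1.3 call did not hold in the edgeR test without F1 library 1, F1 library 2, WT library 1, WT library 2, ddm1 library 1 or ddm1 library 2, where adjusted p was 0.0541 to 0.128, nor with the replicate number as a block (0.11) or with no filter on low counts (0.069). With 1 library left out, the log2 fold change of H1.3 ranged from 1.96 (without WT library 2) to 3.30 (without WT library 3). The calls of H1.1 and H1.2 held with each of the 9 libraries left out, at log2 fold changes of 1.84 to 2.04 and 1.72 to 1.92. Without organelle and ribosomal RNA loci the log2 fold changes were 1.94 for H1.1, 1.85 for H1.2 and 2.41 for H1.3.

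The H2A.W genes gave no call in F1 against WT. HTA7 had 17.4, 18.3 and 13.7 CPM in F1, against 8.78, 10.6 and 11.5 CPM in WT, a log2 fold change of 0.68 (SE 0.26, 95% interval 0.10 to 1.26, adjusted p = 0.087 by edgeR). Its F1 libraries were all above its WT libraries. HTA12 had 3.003, 1.72 and 3.14 CPM in F1, against 2.69, 3.89 and 3.31 CPM in WT, and the groups overlapped (log2 fold change -0.33, SE 0.56, 95% interval -1.58 to 0.92). The log2 fold change of HTA6 was -1.68 (95% interval -4.39 to 1.03) and turned to 1.58 without WT library 2. In all, 3 of the 6 genes were called higher and 0 lower in F1, where 9.66% of all genes tested were called lower. The median log2 fold change of the 6 genes was 1.26, beside 0.12 over all genes tested.

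**Figure D2:**
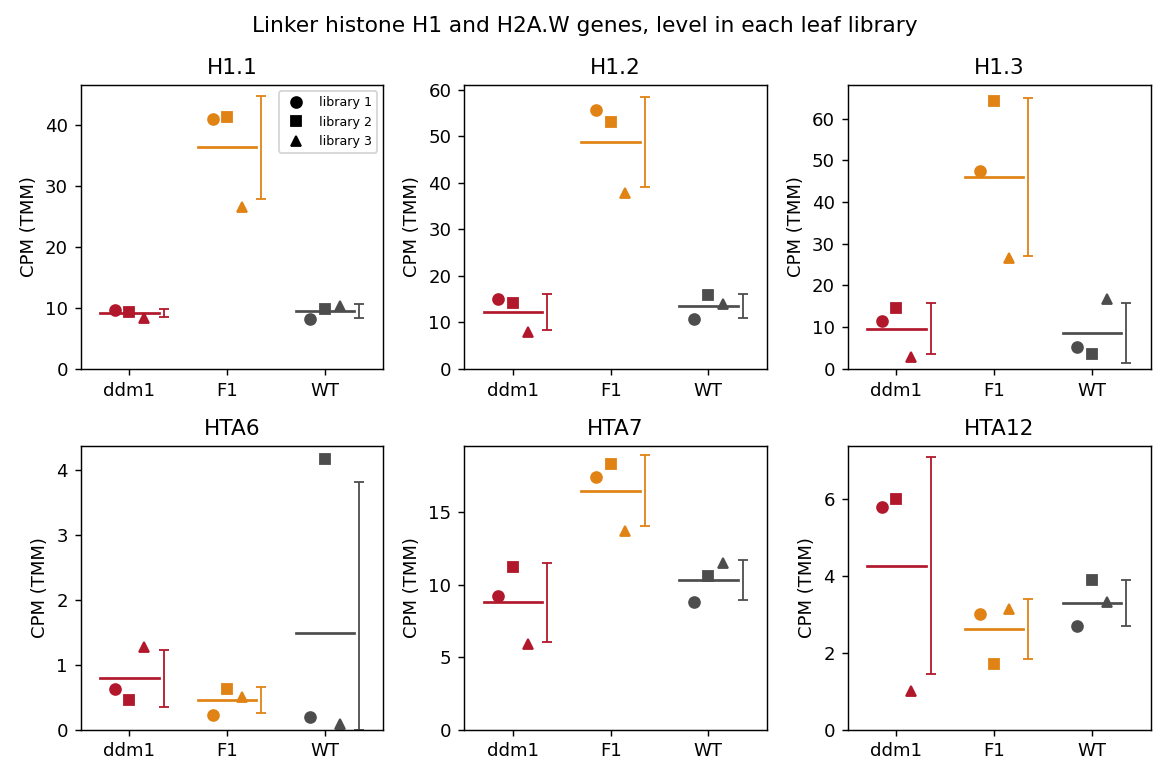
CPM of each gene (y axis, a scale per panel) in ddm1, F1 and WT; symbols are libraries 1 to 3, the horizontal line is the mean and the bar beside it the SD (n = 3), drawn down to 0 at most. The F1 libraries of H1.1, H1.2, H1.3 and HTA7 all lie above the other 6 libraries, and WT library 2 stands alone in HTA6 at 4.17 CPM.

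In ddm1 against F1, the homozygous mutants had less RNA of both main linker histones and of HTA7, where 6.21% of all genes tested were called lower. By the edgeR test with Benjamini-Hochberg adjusted p, H1.1 fell 3.96-fold (log2 fold change -1.99, SE 0.22, adjusted p = 0.00179). H1.2 fell by 1.98 on the log2 scale (SE 0.29, edgeR adjusted p = 0.00435). HTA7 fell by 0.90 on the log2 scale (SE 0.26, edgeR adjusted p = 0.0437), and this call was lost with any 1 of the 9 libraries left out, at adjusted p of 0.0544 to 0.138. H1.3 had a log2 fold change of -2.26 (SE 0.71, 95% interval -3.84 to -0.67), with an edgeR adjusted p of 0.0572. HTA6 had a log2 fold change of 0.76 (SE 1.22) and HTA12 one of 0.71 (SE 0.56, 95% interval -0.54 to 1.96), neither called.

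The test called 3 of the 6 genes lower and 0 higher in ddm1 than in F1, where it called 10.3% of all genes higher. This comparison and that of F1 with WT share the F1 libraries, so their calls are not independent. H1.1 and H1.2 were called in both, as were 4.09% of all genes tested. For 4 of the 6 genes (H1.1, H1.2, H1.3 and HTA7) all 3 F1 libraries lay above the 6 others, an arrangement found for 12.8% of all genes tested.

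**Figure D3:**
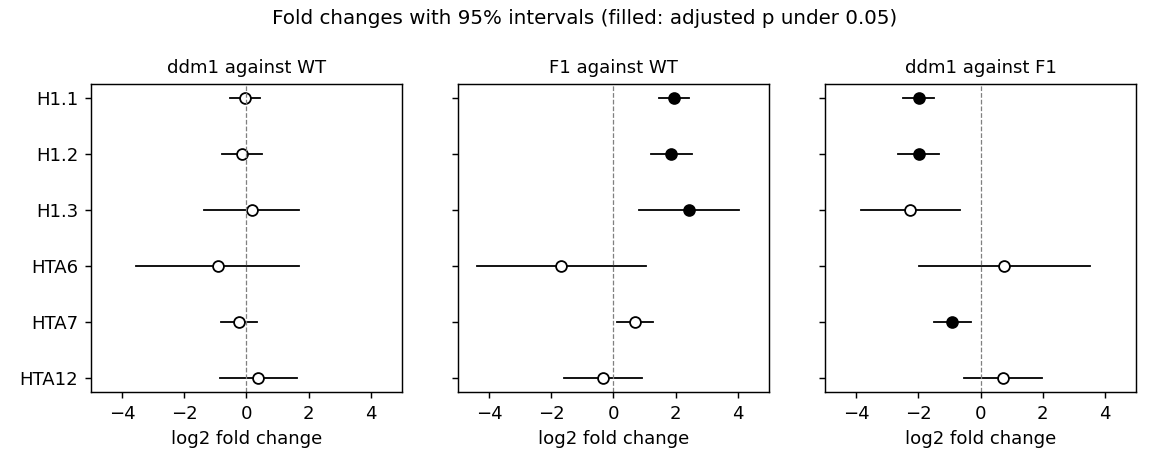
Log2 fold change (x axis) of each gene in the 3 comparisons, with 95% intervals as lines; filled points have an edgeR adjusted p under 0.05. The intervals of ddm1 against WT all span 0, whereas those of the 3 linker histone genes lie above 0 in F1 against WT and below 0 in ddm1 against F1.

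Of the 5 leaf markers, 4 were called lower in F1 than in WT and 0 higher, beside 9.66% and 13.5% of all genes tested. LHCB1.1, a light-harvesting antenna gene with near-identical copies beside it among which reads could be split, had 18.4, 24.0 and 30.1 CPM in F1, against 1188, 1924 and 682.2 CPM in WT. LHCB1.1 fell 52.3-fold in F1 (log2 fold change -5.71, SE 0.75, edgeR adjusted p = 0.000782). RCA, the activase of Rubisco, fell by 2.43 on the log2 scale (edgeR adjusted p = 0.000154), RBCS1A, a Rubisco small subunit, by 2.35 (adjusted p = 0.0324 in edgeR) and LHCA1, a photosystem I antenna gene, by 1.47 (adjusted p = 0.0188 in edgeR). The part of these leaf gene differences in the linker histone values was not tested.

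Among 4 genes known to be induced in the dark, a list chosen after values of these libraries had been seen, 2 rose in F1 against WT. Of all genes tested 13.5% were called higher there. SEN1 had 607, 552 and 115 CPM in F1, against 25.8, 5.89 and 32.3 CPM in WT (log2 fold change 4.32, SE 0.86, edgeR adjusted p = 0.00752). DIN10 also rose (log2 fold change 3.77, SE 0.63, edgeR adjusted p = 0.00292). ASN1 was not called, and its groups overlapped, with 117.9, 53.1 and 8.18 CPM in F1, against 7.49, 9.04 and 15.9 CPM in WT (edgeR adjusted p = 0.114). DIN2 was not tested, with 116, 7 and 0 counts in F1 and 0 counts in each WT library. The part of these genes in the linker histone values was not tested.

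Beyond the groups, H1.3 and LHCB1.1 ran in opposite order in several libraries, a pairing that was also chosen after values had been seen. Among ddm1 libraries, H1.3 was lowest in library 3 (2.77 CPM), where LHCB1.1 was highest (2301 CPM), while libraries 1 and 2 had 11.4 and 14.6 CPM of H1.3 with 461.6 and 584.1 CPM of LHCB1.1. Among WT libraries, H1.3 was highest in library 3 (16.9 CPM), where LHCB1.1 was lowest (682.2 CPM). WT libraries 1 and 2 had 5.19 and 3.61 CPM of H1.3 with 1188 and 1924 CPM of LHCB1.1. F1 libraries 1, 2 and 3 had 47.4, 64.1 and 26.5 CPM of H1.3 with 18.4, 24.0 and 30.1 CPM of LHCB1.1. From library 1 to library 2, both genes were thus higher together in ddm1 and in F1.

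**Figure D4:**
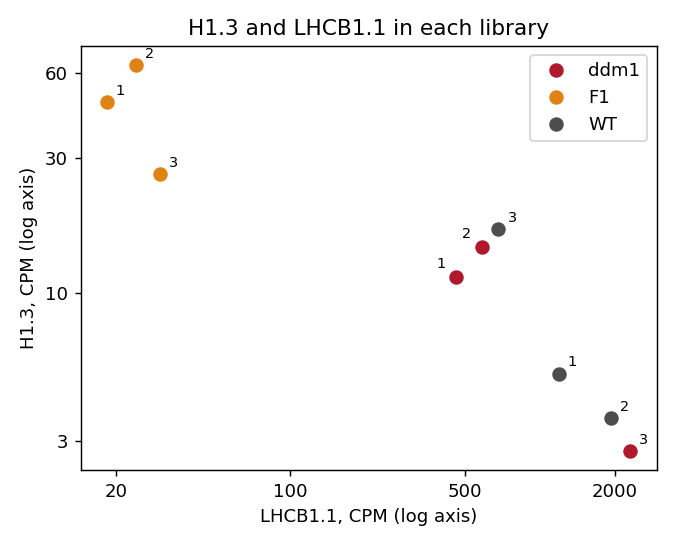
H1.3 CPM (y axis, log) against LHCB1.1 CPM (x axis, log) in the 9 libraries, coloured by group and numbered by library. The F1 libraries lie at the upper left, with 18.4 to 30.1 CPM of LHCB1.1, and ddm1 library 3 lies at the lower right, with 2.77 CPM of H1.3.

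Drought is 1 of the responses that H1.3 is known for, and drought and abscisic acid (ABA) genes are given for that reason. Of 14 such genes 12 were tested, and 2 were called lower in F1 than in WT and 0 higher. Over all genes tested 9.66% were called lower and 13.5% higher. Of the 12 genes 6 had a log2 fold change above 0 in F1 against WT, up to 1.70 for HAI1 (edgeR adjusted p = 0.13). RD22, a dehydration-responsive gene, had 8.78, 43.2 and 35.9 CPM in F1, against 120.2, 111.3 and 133.9 CPM in WT (log2 fold change -2.06, SE 0.48, edgeR adjusted p = 0.0154). RD20, a caleosin gene, fell by 2.42 on the log2 scale in F1 (SE 0.57, edgeR adjusted p = 0.0162). In ddm1 against F1, RD22 was called higher (log2 fold change 2.65, edgeR adjusted p = 0.01) and the phosphatase gene HAI1 lower (log2 fold change -2.66, edgeR adjusted p = 0.0484). The median log2 fold change of the 12 genes was 0.03 in F1 against WT, beside 0.12 over all genes tested. The part of drought or ABA in the H1.3 values was not tested.

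Guard cells are a known site of H1.3. Of 5 guard cell genes, 1 was called higher in F1 than in WT, the potassium channel gene KAT1, with 10.9, 12.5 and 6.66 CPM in F1, against 5.79, 5.79 and 3.73 CPM in WT. Its log2 fold change was 0.97 (SE 0.29, edgeR adjusted p = 0.0396), where 13.5% of all genes tested were called higher. In the same comparison the log2 values of FAMA (-0.28), GC1 (-0.52) and HT1 (-0.03) were negative. That of MYB60 (0.60) was positive, and none of these genes passed the edgeR test. The median log2 fold change of the 5 genes in F1 against WT was -0.03. The summed level of the 5 genes was 17.6 to 22.7 CPM in F1 and 11.5 to 20.2 CPM in WT, and these ranges overlapped. The part of guard cell content in the H1.3 values was not tested.

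Among the other genes with a linker histone globular (GH1) domain, 1 passed the test. HON4, a GH1 protein with AT-hook motifs, had 53.9, 59.4 and 33.8 CPM in F1, against 12.6, 12.7 and 19.0 CPM in WT. It rose by 1.73 on the log2 scale in F1 (SE 0.30, edgeR adjusted p = 0.00373). It was lower in ddm1 than in F1 (log2 fold change -1.76, edgeR adjusted p = 0.00758), with 14.5, 18.3 and 10.5 CPM in ddm1. HON5, the most abundant gene of this list, had 49.1, 44.0 and 33.6 CPM in F1, against 24.0, 23.3 and 31.2 CPM in WT. It was not called in F1 against WT (log2 fold change 0.69, edgeR adjusted p = 0.0654). Of the 6 genes in this list, 1 was called higher and 0 lower in F1 against WT, beside 13.5% and 9.66% of all genes tested. The log2 fold change was above 0 for 3 of the 6, with a median of -0.08.

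Among the 10 other H2A genes, 8 were tested, and 2 were called higher in F1 than in WT and 0 lower. Over all genes tested 13.5% were called higher and 9.66% lower. HTA9, which encodes the variant H2A.Z, had 21.1, 24.2 and 18.8 CPM in F1, against 9.23, 14.0 and 9.23 CPM in WT (log2 fold change 0.98, SE 0.23, edgeR adjusted p = 0.0159). HTA1, a canonical H2A gene, had 6.30, 6.13 and 7.30 CPM in F1, against 2.40, 4.22 and 2.52 CPM in WT (log2 fold change 1.11, SE 0.28, edgeR adjusted p = 0.0194). Both were called lower in ddm1 than in F1, with log2 fold changes of -0.97 for HTA9 (edgeR adjusted p = 0.024) and -1.10 for HTA1 (edgeR adjusted p = 0.0288). The median log2 fold change of the 8 genes in F1 against WT was 0.54. The other 6 genes tested were not called in F1 against WT, with log2 fold changes from -0.96 (HTA13) to 0.99 (HTA3), and whether the linker histones differed from those genes was not tested.

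The 5 genes for the replication-linked histone H3.1 and the 12 cell division genes gave 0 calls in each of the 3 comparisons by edgeR, with 3 and 5 genes tested. Their summed levels varied between libraries of 1 group. The cell division sum was 6.08, 7.30 and 30.1 CPM in ddm1, 5.08, 4.52 and 8.46 CPM in F1, and 7.49, 18.4 and 3.86 CPM in WT. The H3.1 sum was 1.01, 2.91 and 4.65 CPM in ddm1, 0.693, 2.17 and 2.03 CPM in F1, and 0.948, 8.48 and 1.09 CPM in WT. WT library 2 and ddm1 library 3 had the highest values of both sums and of HTA6. The part of dividing cells in the HTA6 values was not tested.

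**Figure D5:**
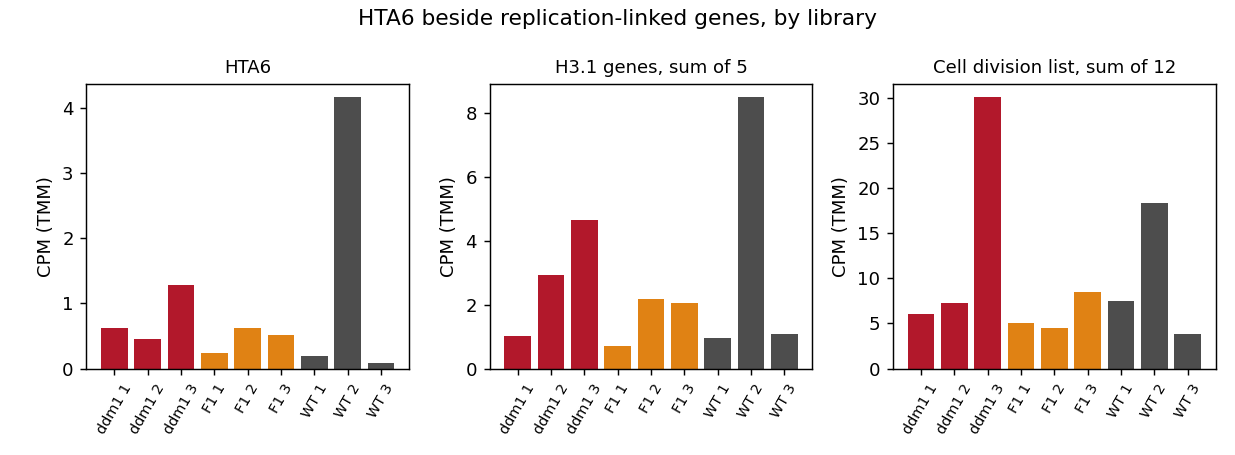
CPM of HTA6, of 5 H3.1 genes summed and of 12 cell division genes summed (y axes) in each library, coloured by group. WT library 2 has the highest bar for HTA6 (4.17 CPM) and H3.1 (8.48 CPM), and ddm1 library 3 the highest for cell division (30.1 CPM).

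Among the 11 histone chaperone genes, which include those that handle H2A and H2B, 0 were called in any comparison by edgeR. The most abundant, NAP1;2, had 30.8, 34.6 and 76.0 CPM in ddm1, 58.2, 51.4 and 65.3 CPM in F1, and 39.9, 56.9 and 45.0 CPM in WT. SPT16, a subunit of the FACT complex, had 23.1 to 26.8 CPM in ddm1, 24.4 to 32.8 CPM in F1 and 23.0 to 29.9 CPM in WT. The chaperone list's median log2 fold change was -0.01 in ddm1 against WT and 0.07 in F1 against WT.

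Of 14 genes that maintain heterochromatin, 11 were tested, and 1 was called. CMT3, the methyltransferase for CHG sites, had 1.63, 2.40 and 4.52 CPM in ddm1, 0.231, 0.802 and 0.462 CPM in F1, and 1.45, 5.75 and 1.89 CPM in WT. It fell by 2.59 on the log2 scale in F1 against WT (SE 0.69, edgeR adjusted p = 0.0259) and was higher in ddm1 than in F1 (log2 fold change 2.49, SE 0.69, edgeR adjusted p = 0.0399). Of all genes tested, 9.66% were called lower in F1 against WT and 10.3% higher in ddm1 against F1. The list gave 0 calls in ddm1 against WT by edgeR, beside 7.37% of all genes tested.

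The genes whose log2 CPM followed each histone gene most closely over the 9 libraries are given as a description, since 9 libraries in 3 groups share the difference between F1 and the rest. For H1.1 these were SWP, a Mediator subunit (Pearson r 0.990), the beta-galactosidase gene BGAL10 (0.989) and DJ1A (0.986). For H1.2 they were the metallothionein gene MT2A (r 0.978), CID12 (0.977) and H1.1 itself (0.975). For H1.3 they were DI19, a drought-induced gene (r 0.992), AILP1 (0.989) and IQD14 (0.989). DI19 averaged 157.2 CPM in ddm1, 326 CPM in F1 and 147.1 CPM in WT, so its levels were far above those of H1.3 in CPM.

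HTA7 was followed most closely by GCT, a Mediator subunit (r 0.980), by HTA5, which encodes H2A.X (0.963), and by AT4G11860 (0.963). HTA5 had 5.53, 5.76 and 3.04 CPM in ddm1, 8.32, 8.24 and 7.95 CPM in F1, and 4.74, 5.93 and 5.49 CPM in WT, and it was called in none of the 3 comparisons. For HTA6 the closest were AT5G50000 (r 0.950), CYP705A18 (0.928) and EXL3 (0.927). For HTA12 they were AT5G01030 (r 0.956), the glutathione transferase gene GSTU13 (0.954) and SPL7 (0.950). Among the 6 genes themselves, r was 0.975 between H1.1 and H1.2, 0.864 between H1.1 and H1.3, 0.933 between H1.2 and HTA7, and -0.110 or lower between HTA6 and each of the others.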

How the data were processed

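RNA from leaves of 3 ddm1, 3 F1 and 3 WT Col-0 samples was sequenced as directional single-end libraries after ribosomal RNA had been removed, per the labels' protocols. The deposited values are estimated counts and TPM, per the file headers, and kallisto 0.46.0 is named in the submitters' processing notes. Those notes also name TAIR10, STAR, deepTools, R 3.6.1, R 3.5.1 and DESeq2 1.22.2, without roles. The sources used here give neither the index nor the strand setting.

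Estimated counts were rounded to whole numbers (all 54 values of the 6 genes were whole within 0.001). Genes were filtered with filterByExpr, which left 18216, and scaled by TMM. One model over all 9 libraries was tested with edgeR 4.0.16 (robust quasi-likelihood test, R 4.3.3), with Benjamini-Hochberg adjustment over all genes and a threshold of 0.05. Alternatives used DESeq2 1.42.0, limma 3.58.1 on log2(TPM + 1) of the deposited TPM, and other settings. Sequences came from RefSeq TAIR10.1, whose nuclear coordinates were taken as those of TAIR10.

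The 6 genes and the lists were chosen with earlier results of these data known. Named from each list were all called genes (up to 6, smallest p first) or, with none called, the 2 most abundant, unless said otherwise. For each histone gene the 3 genes closest in log2 CPM (prior count 2) were named. Equal replicate numbers were not treated as pairs in the main test.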

Additional observations from a re-analysis of the deposited data

How the results depend on the processing

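H1.1 and H1.2 kept their calls in F1 against WT and in ddm1 against F1 in each of the 17 alternatives, and ddm1 against WT gave 0 called among the 6 genes in each of them. The number called ranged from 2 to 4 in F1 against WT and from 2 to 3 in ddm1 against F1 with 1 library left out. With the replicate block 0, 2 and 2 were called in ddm1 against WT, F1 against WT and ddm1 against F1. Deviations of same-numbered libraries correlated at -0.42 to 0.20, above 0.1 in 2 of 9 pairs, and 5 of 18 correlated best with their own number. With 3 libraries a group, these values cannot settle whether equal numbers share a batch, which the labels do not state. H1.3 lost its F1 call with the block (adjusted p = 0.11 by edgeR) and with no filter (adjusted p = 0.069 by edgeR), and was called in ddm1 against F1 by DESeq2 (adjusted p = 0.0079), with only those 2 groups (edgeR adjusted p = 0.0497) and without WT library 3 (edgeR adjusted p = 0.0413). HTA7 was called in F1 against WT without ddm1 library 3 (edgeR adjusted p = 0.0328). HTA12 was called in ddm1 against F1 without both WT library 2 and ddm1 library 3, a setting chosen after seeing the data (log2 fold change 1.26, edgeR adjusted p = 0.0412). Over all genes, edgeR made 4226 calls in F1 against WT and 3007 in ddm1 against F1. With 1 library left out these became 2395 (without F1 library 1) to 5214 (without ddm1 library 3) and 939 (without F1 library 1) to 3427 (without F1 library 3). DESeq2 made 5395 and 4346 calls, and edgeR with the block made 2852 and 1341. With limma on TPM, 36.3% of the F1 against WT calls were higher, beside 58.4% in edgeR, and 73.3% beside 62.4% in ddm1 against F1; the median over all genes in F1 against WT moved by -0.22. The smallest log2 fold changes in F1 against WT under any setting were 1.55 for H1.1, 1.48 for H1.2 and 1.96 for H1.3. The causes were not tested.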

Other observations

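Histone genes with the octamer CGCGGATC tended to have their highest CPM in WT library 2, a pattern chosen after values had been seen. Of the 7 such genes among the listed H1, H2A and H3.1 genes, 6 were highest in that library, as were 4 of the 14 listed genes without it and 13.2% of all genes tested. The exception was H1.1, which was highest in F1. The 4 genes without the octamer were HTA4, HTA11 and the H3.1 genes AT3G27360 (2.09 CPM in WT library 2) and AT5G10390 (1.53 CPM). Every H3.1 gene was thus highest in that library, with or without the octamer. Of the canonical H2A genes with the octamer, HTA10 had 0.922, 0.457 and 0.405 CPM in ddm1, 0.924, 0.572 and 0.971 CPM in F1, and 0.699, 1.62 and 0.252 CPM in WT. HTA13 had 0.210, 0.457 and 0.675 CPM in ddm1, 0.289, 0.401 and 0.508 CPM in F1, and 0.549, 1.39 and 0.419 CPM in WT. These genes rest on few counts, and 1 library cannot stand for a group.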
